A study of Homo sapiens with 8 samples.

Results

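The nuclear-encoded genes of oxidative phosphorylation were followed by RNA sequencing in 2 human fibroblast lines, here line 1 and line 2, treated with a small interfering RNA (siRNA) that targets SUPT4H1 or with a control siRNA. The genes were taken by symbol: names starting with NDUFA (NDUFAB and the assembly factors NDUFAF included), NDUFB, NDUFC, NDUFS, NDUFV, UQCR, ATP5 or COX4 to COX8, together with SDHA, SDHB, SDHC, SDHD, CYC1 and CYCS. Of 103 such names, 2 antisense names (NDUFA6-AS1 and NDUFB2-AS1) and 3 pseudogenes (ATP5EP2, NDUFAF4P1 and UQCRBP1) were left out, which gave 98 genes of 23299 symbols. They comprise 7 core and 30 supernumerary subunits of complex I, 4 genes of complex II, 9 of complex III, cytochrome c, 19 of complex IV, 16 of complex V, 7 NDUFAF assembly factors and 5 other names (ATP5S, ATP5SL, UQCRHL and the read-through loci ATP5J2-PTCD1 and NDUFC2-KCTD14). Each line had 2 control siRNA and 2 SUPT4H1 siRNA samples. All cells were transfected with Lipofectamine RNAiMAX, carry no other manipulation in the labels, and gave polyA RNA. The replicates are described as replicate treatments, and nothing says that they were cultures grown apart. The p-values therefore rest on the spread among these samples alone, and that spread may be technical. The values describe these lines and not fibroblasts in general.

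Oxidative phosphorylation takes place in the inner mitochondrial membrane. Complexes I and II pass electrons from NADH and succinate to ubiquinone, complex III passes them to cytochrome c, and complex IV passes them to oxygen, while complexes I, III and IV pump the protons that drive ATP synthesis by complex V. Most subunits are encoded in the nucleus and are assembled with a few mitochondrially encoded ones, which were not analysed here. SUPT4H1 encodes SPT4, which with SPT5 forms DSIF, a factor that binds RNA polymerase II and acts in pausing and elongation.

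The target of the siRNA was low in every SUPT4H1 siRNA sample. In line 1 SUPT4H1 went from 25.6 and 25.6 FPKM (fragment counts divided by transcript length and by the mapped fragments of the sample) to 1.37 and 1.43. In line 2 it went from 26.2 and 28.3 to 1.69 and 1.74. The knockdown thus left 5.5% of control in line 1, where line 2 kept 6.3% (log2 change -3.42, SE 0.04, limma adjusted p = 4.05e-11). The number of fragments per sample is not given. Relative to the first control sample of line 1, the depth of the samples was 0.82 to 1.13, and the FPKM summed to 288293 to 305680 per sample. All 10 fibroblast markers were detected, with summed levels of 12725 to 13247 FPKM in control and 11600 to 13292 in SUPT4H1 siRNA samples. Of these markers 1 rose (10%) and 4 fell (40%), where 26.8% of all genes tested rose and 15.2% fell. In line 2 alone, 8 of the 10 fell. Summed endothelial (at most 0.28 FPKM), melanocyte (at most 0.22) and skeletal muscle (at most 1.53) markers were near 0. Keratinocyte markers summed to 7.67 to 8.86 FPKM, with KRT1 and KRT5 at 0. Of the 5 immune cell markers, CD3E was at 0. Their sum was 45.1 to 51.9 FPKM in control samples and 59.4 to 78.1 in SUPT4H1 siRNA samples, and CD68, which also marks lysosomes in other cells, rose (log2 change 0.48, limma adjusted p = 0.00277). Whether these shifts bear on the genes described here was not tested.

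Of the 98 genes, 90 had a mean of at least 1 FPKM and were tested, with means of 1.97 to 212 FPKM. The 8 others, COX4I2, COX6A2, COX6B2, COX7B2, COX8C, ATP5L2, ATP5J2-PTCD1 and NDUFC2-KCTD14, had means of at most 0.225 FPKM. After SUPT4H1 siRNA, 29 of the 90 were called (32.2%), against 42.1% of all 11444 genes tested. Of these, 21 rose (23.3%) and 8 fell (8.89%), where 26.8% of all genes rose and 15.2% fell, so neither share exceeded that of all genes. The rises were small, from 0.08 to 0.32 on the log2(FPKM + 1) scale, the largest being NDUFA7 at 128% of control in line 1 and 125% in line 2. The falls ran from -0.07 to -0.45. The median change of the 90 was 0.05, against 0.03 for all genes, and the log2 scale with 1 added understates changes of low genes. Both SUPT4H1 siRNA samples lay above both controls in each line for 24 genes, against 28.8% of all genes, and below them for 8, against 16.6%. In bulk RNA, a change in the RNA per cell and a change in the makeup of the cells cannot be told apart.

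The balance of rises and falls depended on the scaling. FPKM are relative values, and with the samples scaled to equal median ratios, 12 of the 90 rose and 14 fell, where 20.3% and 20.2% of all genes did. Rises then made up 46.2% of the calls in place of 72.4%. All 12 of these rises and 8 of the 14 falls were also called without the scaling. Without the term for the line, the grouping that the series design names, 3 genes rose and none fell (limma, against 3.56% and 1.78% of all genes), while 7 rises and 2 falls had an unadjusted p under 0.05. Of the 29 calls, 15 were kept when any 1 sample was left out, and 14 were lost without at least 1 sample. For the 61 genes not called, the 95% intervals reached from -0.25 to 0.29 at most, NDUFB2 aside (-0.43 to 0.64), which bounds the change that these samples leave possible.

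**Figure D1:**
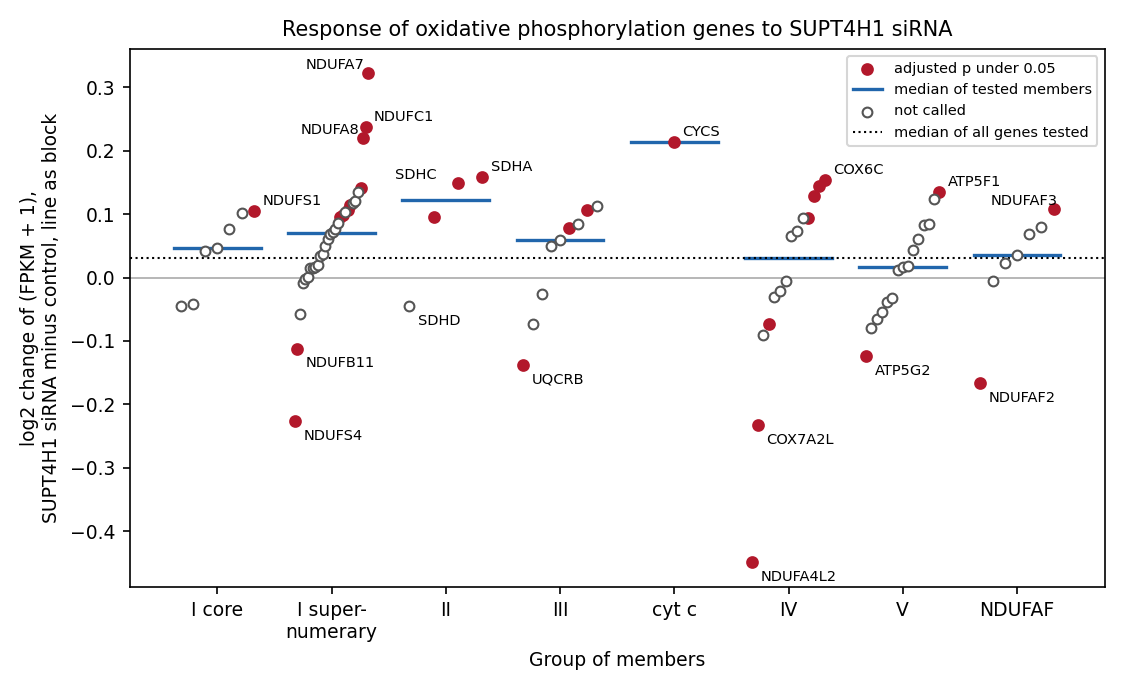
Log2 change of each tested gene (SUPT4H1 siRNA minus control siRNA, on the log2(FPKM + 1) scale, line as block) by complex, with filled points for an adjusted p under 0.05, open points for the others, a bar at the median of each group and a dotted line at the median of all 11444 genes tested. Most points lie within 0.15 of 0, complex II and cytochrome c have the highest group medians (0.12 and 0.21), and NDUFA4L2, at -0.45, is the lowest point; the 3 tested genes outside these groups are not drawn.

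Complex I oxidises NADH, and 9 of its 37 tested genes rose while 2 fell. These shares, 24.3% and 5.41%, were below the 26.8% and 15.2% of all genes tested. With median ratio scaling 5 rose and 3 fell, where 20.3% and 20.2% of all genes did. Among the 7 core subunits, which carry the flavin and the iron-sulfur clusters, 1 rose and none fell. That gene was NDUFS1, the large iron-sulfur subunit of the NADH-oxidising arm, which went from 13.7 and 13.7 to 14.4 and 14.8 FPKM in line 1 and from 14.8 and 15.8 to 16.6 and 16.9 in line 2. Every SUPT4H1 siRNA sample lay above both controls of its line (log2 change 0.10, SE 0.03, limma adjusted p = 0.0145). NDUFS7, which holds the iron-sulfur cluster nearest to ubiquinone, differed by 0.10 (adjusted p = 0.0689), with groups that overlapped in line 2. The most abundant core gene, NDUFS8, another iron-sulfur subunit, ranged from 36.3 to 46.3 FPKM over the 8 samples and was not called (0.08, adjusted p = 0.164). NDUFS3, NDUFV1 and NDUFV2 had log2 differences of -0.04 to 0.05 and were not called.

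The supernumerary subunits surround the core and are needed for its assembly or stability. Here 8 of 30 rose (26.7%) and 2 fell (6.67%), against 26.8% and 15.2% of all genes. NDUFA7 had the largest rise of all 90 tested genes. It went from 14.0 and 11.5 to 15.6 and 17.0 FPKM in line 1 and from 16.3 and 17.7 to 21.0 and 21.6 in line 2, which is 128% and 125% of control (log2 change 0.32, SE 0.06, limma adjusted p = 0.00182). NDUFC1, a small subunit of the membrane arm, went from 22.5 and 24.2 to 27.5 and 28.4 FPKM in line 1 and from 24.6 and 25.8 to 29.8 and 29.3 in line 2 (0.24, SE 0.03, adjusted p = 3.29e-04). In both genes the siRNA groups did not overlap within either line. NDUFA8, a small cysteine-rich subunit of the membrane arm, rose by 0.22 (adjusted p = 0.00135), and NDUFAB1, the mitochondrial acyl carrier protein, which also serves fatty acid and iron-sulfur cluster synthesis, rose by 0.12 (adjusted p = 0.0154). NDUFA9, a subunit at the junction of the arms, rose by 0.14, and NDUFA5, NDUFS5 and NDUFB5 rose by 0.11, 0.10 and 0.10.

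NDUFS4 and NDUFB11 moved against the other called genes of complex I. NDUFS4 is a subunit of the NADH-oxidising arm in which loss-of-function mutations cause Leigh syndrome. It went from 49.2 and 46.4 to 41.9 and 42.2 FPKM in line 1 and from 54.8 and 53.9 to 44.9 and 44.7 in line 2, so every SUPT4H1 siRNA sample of both lines lay below every control sample. The log2 change was -0.23 (SE 0.03, limma adjusted p = 3.37e-04), which left 87.9% of control in line 1 and 82.5% in line 2. NDUFB11, an X-linked subunit of the membrane arm, went from 31.0 and 30.7 to 27.9 and 28.7 FPKM in line 1 and from 32.9 and 34.1 to 30.5 and 31.6 in line 2 (-0.11, SE 0.02, adjusted p = 0.00576). NDUFA13, the most abundant supernumerary gene at 106 to 127 FPKM, was not called (0.08, adjusted p = 0.177), and the 20 supernumerary genes not called had log2 differences of -0.06 to 0.13. The calls of NDUFA5, NDUFA9, NDUFB5 and NDUFS5 were lost under median ratio scaling and with no filter on FPKM, and those of NDUFB5 and NDUFS5 also with line and replicate number as block and without the variance trend. They were lost too when single samples were left out (adjusted p up to 0.128): for NDUFA5 and NDUFS5 any sample of line 1, control replicate 1 or SUPT4H1 siRNA replicate 2 of line 2, for NDUFB5 also SUPT4H1 siRNA replicate 1 of line 2, and for NDUFA9 control replicate 2 or SUPT4H1 siRNA replicate 1 of line 1, control replicate 1 or SUPT4H1 siRNA replicate 2 of line 2. NDUFC1 overlaps NAA15 (log2 difference 0.08, adjusted p = 0.107) in the deposited coordinates. Since no use of strand is stated, reads in the bases that the 2 genes share cannot be told apart. How many bases they share was not measured.

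Complex II, succinate dehydrogenase, links the citric acid cycle to the respiratory chain, and 3 of its 4 genes rose, where 26.8% of all genes did. With median ratio scaling 2 of the 4 rose, against 20.3% of all genes. SDHA, the flavoprotein that oxidises succinate, went from 30.7 and 31.7 to 35.1 and 33.4 FPKM in line 1 and from 29.8 and 30.8 to 34.9 and 34.5 in line 2. All 4 SUPT4H1 siRNA samples lay above all 4 controls, and the mean went from 30.8 ± 0.75 to 34.4 ± 0.77 FPKM (SD, n = 4 each; log2 change 0.16, SE 0.03, limma adjusted p = 0.00182). SDHC, a membrane anchor that takes part in ubiquinone binding, went from 12.4 and 12.2 to 13.7 and 14.4 FPKM in line 1 and from 14.7 and 14.9 to 16.1 and 16.2 in line 2 (0.15, SE 0.03, adjusted p = 0.00232). SDHB, the iron-sulfur subunit, rose from 24.8 and 24.6 to 26.04 and 26.1 FPKM in line 1 and from 24.4 and 26.5 to 27.0 and 28.3 in line 2 (0.10, SE 0.03, adjusted p = 0.0336). The other anchor, SDHD, was not called: it stood at 42.3 and 40.0 against 39.5 and 44.2 FPKM in line 1 and at 39.8 and 38.4 against 37.4 and 34.9 in line 2, a log2 difference of -0.04 with a 95% interval of -0.15 to 0.06. The SDHB call was lost under median ratio scaling (adjusted p = 0.102), with no filter on FPKM and without any 1 sample of line 1, control replicate 1 of line 2 or SUPT4H1 siRNA replicate 2 of line 2 (up to 0.0998).

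**Figure D2:**
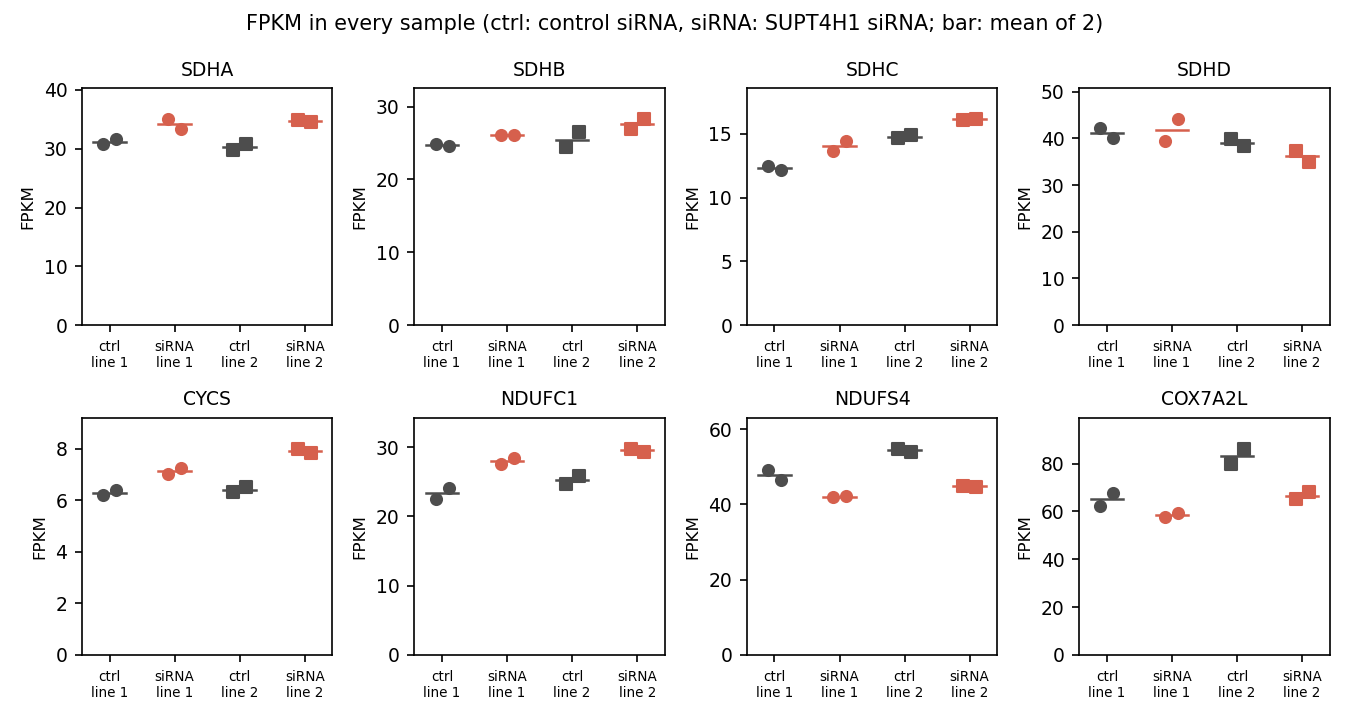
FPKM of 8 genes in every sample, with circles for line 1, squares for line 2, grey for control siRNA, red for SUPT4H1 siRNA and a bar at the mean of each pair of replicates. SDHA, SDHB, SDHC, CYCS and NDUFC1 lie higher and NDUFS4 and COX7A2L lower in both SUPT4H1 siRNA samples of each line, while SDHD overlaps in line 1.

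The promoters of SDHA and SDHB, which rose, are shown with that of SDHD, which did not, because 3 of the 4 genes of complex II rose. SDHC, which also rose, was not among the promoters available, so the rises are not all covered. Each sequence is the 250 bases before the annotated start, 5′ to 3′ on the strand of the gene, from RefSeq in GRCh38.p14: chr5:218070-218319 (plus strand), chr1:17054033-17054282 (minus strand) and chr11:112086623-112086872 (plus strand). Capitals mark GCGCA and GCGC with any 1 base between them, letters bound by the factor NRF1, and CCGGAAG, those bound by ETS factors such as GABPA, on either strand.
SDHA: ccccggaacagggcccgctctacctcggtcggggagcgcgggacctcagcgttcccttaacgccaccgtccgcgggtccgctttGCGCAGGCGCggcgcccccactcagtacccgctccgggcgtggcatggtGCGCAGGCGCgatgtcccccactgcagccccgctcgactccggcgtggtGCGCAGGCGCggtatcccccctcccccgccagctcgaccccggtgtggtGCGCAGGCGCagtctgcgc
SDHB: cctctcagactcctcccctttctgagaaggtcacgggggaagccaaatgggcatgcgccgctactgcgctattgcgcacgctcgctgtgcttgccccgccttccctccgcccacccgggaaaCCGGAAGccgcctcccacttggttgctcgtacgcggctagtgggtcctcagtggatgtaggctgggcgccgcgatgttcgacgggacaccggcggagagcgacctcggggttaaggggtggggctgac
SDHD: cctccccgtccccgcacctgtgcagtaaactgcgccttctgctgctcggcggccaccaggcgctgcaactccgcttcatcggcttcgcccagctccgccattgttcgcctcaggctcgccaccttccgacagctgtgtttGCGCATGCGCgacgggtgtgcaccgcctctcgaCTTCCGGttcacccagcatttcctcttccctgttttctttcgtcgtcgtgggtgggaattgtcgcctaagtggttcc
The SDHA promoter held the NRF1 letters 4 times, starting at positions -166, -117, -68 and -19 from the start. SDHB held CCGGAAG 1 time and no NRF1 letters, and SDHD held both, so SDHA and SDHB shared neither pattern. RefSeq windows of 250 bases before to 50 bases after the start matched 79 of the 98 genes, 74 of them tested. The NRF1 letters were in 21.6% of the 74 windows against 12.5% of 9359 windows of all genes tested, and the ETS letters in 27.0% against 20.6%. AANATGGCG, the letters of the factor YY1, were in 21.6% against 7.5%. TNAAGGTCA, those of estrogen-related receptors, were in 2 of the 74 (2.7%, against 0.5%), both windows of genes not called. Other letters were less frequent than in all genes tested. CCAAT was in 33.8% against 36.5%, and ACGTG or GCGTG, the core letters of hypoxia-inducible factors, in 59.5% against 64.4%. The NRF1 letters were in 4 of the 17 windows of genes that rose, in none of the 7 of genes that fell and in 12 of the 50 of genes not called. The ETS letters were in 4, 1 and 15 of these windows. These counts describe letters in a window and were not tested.

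Complex III carries electrons from ubiquinol to cytochrome c. Of its 9 genes 2 rose (22.2%) and 1 fell (11.1%), against 26.8% and 15.2% of all genes. UQCR11, its smallest subunit, stood at 27.1 and 27.1 against 27.9 and 29.5 FPKM in line 1 and at 30.8 and 32.3 against 33.6 and 35.9 in line 2 (log2 change 0.11, SE 0.03, limma adjusted p = 0.024). UQCRC2, a core protein on the matrix side, rose by 0.08 (SE 0.03, adjusted p = 0.037). UQCRB, which takes part in ubiquinone binding, went the other way, from 18.1 and 18.2 to 16.8 and 17.5 FPKM in line 1 and from 16.6 and 18.3 to 14.6 and 15.5 in line 2 (-0.14, SE 0.04, adjusted p = 0.0212). UQCRQ, UQCRC1 and CYC1, the cytochrome c1 gene, also lay above both controls in each line, with adjusted p of 0.0587, 0.0687 and 0.0746. The calls of UQCR11 and UQCRC2 were lost under median ratio scaling (adjusted p = 0.0781 and 0.168) and without SUPT4H1 siRNA replicate 2 of line 1, control replicate 1 or SUPT4H1 siRNA replicate 2 of line 2, for UQCRC2 also without control replicate 2 of line 1 or SUPT4H1 siRNA replicate 1 of line 2, and that of UQCRB without SUPT4H1 siRNA replicate 1 of line 2 (adjusted p = 0.0615). The UQCRC2 call was also lost with line and replicate number as block and without the variance trend. The UQCR11 promoter, chr19:1605463-1605712 on the minus strand in GRCh38.p14, is shown because it holds both sets of letters more than 1 time, with the same capitals as above.
UQCR11: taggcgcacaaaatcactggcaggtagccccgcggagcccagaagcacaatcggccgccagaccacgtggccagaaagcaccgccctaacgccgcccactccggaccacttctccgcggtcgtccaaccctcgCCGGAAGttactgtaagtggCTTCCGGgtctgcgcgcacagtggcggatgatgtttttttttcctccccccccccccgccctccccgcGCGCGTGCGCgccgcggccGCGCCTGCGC

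The most abundant gene of complex III was UQCRH, the hinge protein, at 78.6 to 88.4 FPKM, and it was not called (-0.07, adjusted p = 0.11). Its near-identical copy UQCRHL was listed at 79.5 to 84.7 FPKM, so both values are uncertain.

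CYCS, the electron carrier between complexes III and IV that also triggers apoptosis once released, rose in both lines. It went from 6.20 and 6.39 to 7.02 and 7.26 FPKM in line 1 and from 6.31 and 6.496 to 7.999 and 7.83 in line 2, which is 113% and 124% of control. No SUPT4H1 siRNA sample overlapped any control (log2 change 0.21, SE 0.03, limma adjusted p = 9.85e-04). CYCS, SDHA and NDUFC1 were the 3 genes that kept their call under every alternative tried, with adjusted p of 0.0431, 0.0446 and 0.0367 without the line term.

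Complex IV reduces oxygen, and of its 14 tested genes 4 rose (28.6%) and 3 fell (21.4%), where 26.8% and 15.2% of all genes did. The rises were in structural subunits around the catalytic core. COX6C went from 43.6 and 44.3 to 49.2 and 49.4 FPKM in line 1 and from 45.3 and 49.05 to 50.9 and 53.5 in line 2 (log2 change 0.15, SE 0.03, limma adjusted p = 0.00344). COX5A rose by 0.15 (adjusted p = 0.00445), and COX5B, the zinc-binding subunit, by 0.13 (adjusted p = 0.00351), from 87.3 and 87.2 to 96.3 and 93.1 FPKM in line 1 and from 95.1 and 98.4 to 104.6 and 108.7 in line 2. In COX5A, COX5B and COX6C, every SUPT4H1 siRNA sample lay above the controls of its line.

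COX7A2L, COX4I1 and NDUFA4L2 fell. COX7A2L, also called SCAF1, is related to the COX7A subunits and joins complexes III and IV in supercomplexes. It went from 62.2 and 67.9 to 57.5 and 59.5 FPKM in line 1 and from 79.96 and 86.2 to 65.02 and 67.9 in line 2, which left 90.0% and 80.0% of control. The groups did not overlap within a line (log2 change -0.23, SE 0.04, limma adjusted p = 0.00331). COX4I1, the general isoform of subunit 4 and the most abundant gene of the complex, went from 178 and 180 to 169 and 169 FPKM in line 1 and from 180 and 187 to 174 and 178 in line 2, a fall by 0.07 (SE 0.02, adjusted p = 0.0369) whose call was lost without any 1 of the samples except control replicate 1 of line 2. It was also lost with line and replicate number as block and without the variance trend.

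The promoters of COX5B, which rose, and COX7A2L, which fell, are given as examples, at chr2:97645812-97646061 (plus strand) and chr2:42361218-42361467 (minus strand) in GRCh38.p14, with CCGGAAG in capitals.
COX5B: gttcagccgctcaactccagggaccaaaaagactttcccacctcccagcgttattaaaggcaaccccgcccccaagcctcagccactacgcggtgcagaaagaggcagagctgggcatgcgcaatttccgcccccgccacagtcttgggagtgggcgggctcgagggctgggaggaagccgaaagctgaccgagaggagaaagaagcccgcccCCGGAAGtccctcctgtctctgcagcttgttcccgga
COX7A2L: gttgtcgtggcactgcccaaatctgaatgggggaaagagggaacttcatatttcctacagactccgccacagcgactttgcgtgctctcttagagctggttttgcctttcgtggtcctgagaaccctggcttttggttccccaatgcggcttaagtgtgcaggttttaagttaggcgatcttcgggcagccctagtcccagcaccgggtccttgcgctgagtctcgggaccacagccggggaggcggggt
In COX5B a further CCGGAAG runs over the start and is cut off in the bases shown. COX7A2L held neither the NRF1 nor the ETS letters in the window, which says nothing on binding of the factors. The pair does not stand for the complex. COX5A, which rose, held neither set of letters, and COX4I1, which fell, held the ETS letters just after the start.

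Several complex IV subunits exist as isoforms, and most isoforms known from other tissues were at or near 0. COX4I2, the isoform of lung and low oxygen, and COX7B2 were listed at 0 in all 8 samples. Both carried the status OK in every sample. Without counts, whether such a 0 means no RNA or a failed estimate was not tested. COX6A2, of heart and muscle, and COX6B2 and COX8C, of testis, had means of 0.015, 0.014 and 0.049 FPKM. COX4I1, the general partner of COX4I2, fell as given above. The general partners of the others were abundant and none was called: COX6A1 ranged from 20.8 to 31.6 FPKM, COX6B1 from 76.8 to 95.2, COX7B from 57.9 to 85.8 and COX8A from 113 to 142. COX7A1, named for heart and muscle, was expressed here at 24.9 to 29.9 FPKM and was not called (0.07, adjusted p = 0.293). COX7A2, the general isoform, at 43.3 to 57.6 FPKM, rose by 0.09 (adjusted p = 0.0376), a call lost under median ratio scaling, with line and replicate number as block, with no filter on FPKM, without the variance trend and without any 1 of 7 samples, all but SUPT4H1 siRNA replicate 1 of line 1 (adjusted p up to 0.111). NDUFA4, once counted in complex I and now known as a complex IV subunit, stood at 10.6 to 12.6 FPKM in all samples and was not called (0.09, adjusted p = 0.153).

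NDUFA4L2, the paralog of NDUFA4 that hypoxia-inducible factor 1 induces and that lowers oxygen use in low oxygen, was the gene of the 90 whose level and response differed most between the lines. In line 1 it stood at 3.89 and 3.90 FPKM in the controls and at 3.398 and 4.13 after SUPT4H1 siRNA, and in line 2 at 55.2 and 59.7 in the controls and at 30.5 and 32.1 after SUPT4H1 siRNA. The groups overlapped in line 1 and lay far apart in line 2, where 54.5% of control was left. The log2 change was -0.04 in line 1 (limma adjusted p = 0.668) and -0.86 in line 2 (adjusted p = 8.08e-06), and the difference of the responses, line 2 minus line 1, was -0.81 (SE 0.09, adjusted p = 7.74e-04). The change over both lines, -0.45 (adjusted p = 0.0311), therefore averages unlike responses, and it was lost without any 1 of the 4 samples of line 2 (adjusted p up to 0.0904), with line and replicate number as block and with no filter on FPKM. NDUFA4L2, at 12:57628686-57634475 in hg19, overlaps SHMT2, which encodes the mitochondrial serine hydroxymethyltransferase. SHMT2 stood at 75.2 and 78.4 against 75.1 and 76.5 FPKM in line 1 and at 64.8 and 66.2 against 49.5 and 49.0 in line 2, so it too was lower after SUPT4H1 siRNA in line 2 (-0.40, adjusted p = 5.97e-06), by less than NDUFA4L2. No use of strand is stated, and the part of SHMT2 reads in the NDUFA4L2 values was not tested. In the controls SHMT2 was lower in line 2 than in line 1, while NDUFA4L2 was higher.

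**Figure D3:**
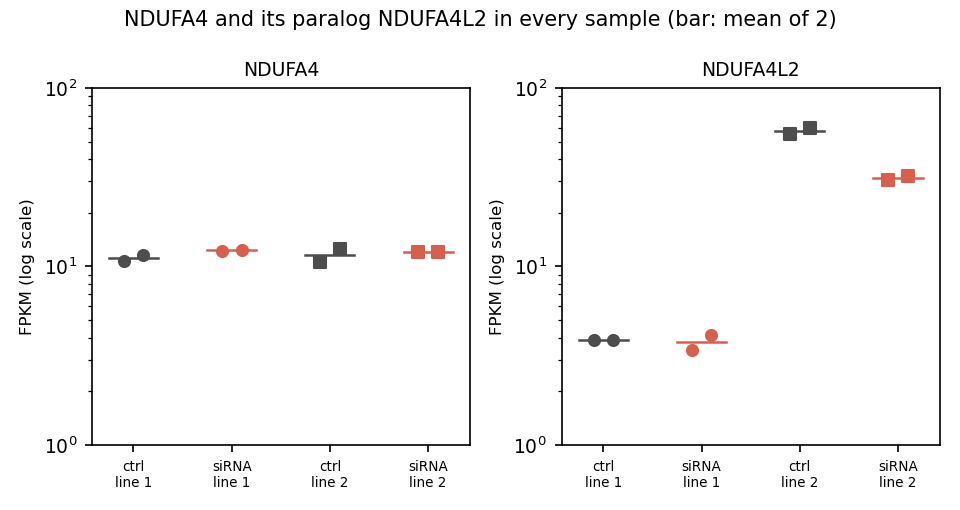
FPKM of NDUFA4 and NDUFA4L2 in every sample on a log axis, with circles for line 1, squares for line 2, grey for control siRNA (ctrl), red for SUPT4H1 siRNA (siRNA) and a bar at the mean of each pair of replicates. NDUFA4 lies between 10.6 and 12.6 in all 8 samples, and NDUFA4L2 lies between 3.398 and 4.13 in line 1 and between 30.5 and 59.7 in line 2.

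The NDUFA4L2 promoter, chr12:57240763-57241012 on the minus strand in GRCh38.p14, listed in RefSeq under the current symbol COXFA4L2, is shown because of the gene's known induction by hypoxia-inducible factors, with ACGTG or GCGTG, their core letters, in capitals where they occur on either strand.
NDUFA4L2: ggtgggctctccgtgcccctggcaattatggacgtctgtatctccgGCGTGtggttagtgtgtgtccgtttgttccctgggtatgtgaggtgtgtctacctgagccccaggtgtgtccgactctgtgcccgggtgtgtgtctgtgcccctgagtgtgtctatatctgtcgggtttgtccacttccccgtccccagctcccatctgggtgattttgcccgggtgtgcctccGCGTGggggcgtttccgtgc
The letters GCGTG occurred 2 times, and one or other of these letter runs was in 64.4% of the windows of all genes tested, so the match is common.

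Complex V, the ATP synthase, held 1 rise and 1 fall among 15 tested genes (6.67% each, against 26.8% and 15.2% of all genes). ATP5F1, subunit b of the peripheral stalk, went from 24.9 and 24.2 to 28.1 and 28.3 FPKM in line 1 and from 26.2 and 28.1 to 28.7 and 28.6 in line 2 (log2 change 0.13, SE 0.03, limma adjusted p = 0.0107). It overlaps WDR77 (log2 difference 0.09, adjusted p = 0.151), and reads in the bases that the 2 share cannot be told apart. The length of this overlap was not measured. ATP5G1, ATP5G2 and ATP5G3 encode the same mature subunit c of the membrane ring. ATP5G2, the most abundant of them at 84.8 to 109.5 FPKM, fell by 0.12 (SE 0.04, adjusted p = 0.0305), with groups that overlapped in line 1, and the call was lost with no filter on FPKM and without any 1 of 6 samples, all but control replicate 2 and SUPT4H1 siRNA replicate 1 of line 1 (adjusted p up to 0.0891). ATP5G1, at 34.0 to 38.6 FPKM, and ATP5G3, at 25.4 to 30.4, had log2 differences of -0.03 and 0.04 and were not called. ATP5E, the epsilon subunit and the most abundant of all 98 genes, ranged from 190 to 240 FPKM and was not called (-0.05, adjusted p = 0.178). ATP5J2, subunit f, differed by 0.12 (adjusted p = 0.0706), and the 13 genes of complex V not called had log2 differences of -0.08 to 0.12. ATP5L2, a copy of the gene of subunit g, was at 0.022 FPKM on average and was not tested.

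The NDUFAF assembly factors help to build complex I without being part of it. Of the 7, 1 rose and 1 fell (14.3% each, against 26.8% and 15.2% of all genes). NDUFAF3, which acts early in the assembly of the ubiquinone module and is the most abundant of them, went from 23.8 and 23.98 to 25.5 and 24.3 FPKM in line 1 and from 26.1 and 25.3 to 28.9 and 28.7 in line 2 (log2 change 0.11, SE 0.03, limma adjusted p = 0.0165). NDUFAF2, which acts late in assembly, went from 8.98 and 9.64 to 7.95 and 8.58 FPKM in line 1 and from 8.80 and 10.8 to 8.56 and 8.47 in line 2 (-0.17, SE 0.06, adjusted p = 0.0377). NDUFAF6, at 1.84 to 2.59 FPKM, was not called (0.08, adjusted p = 0.29). The NDUFAF3 call was lost under median ratio scaling and without either SUPT4H1 siRNA sample of line 2, and the NDUFAF2 call with no filter on FPKM and without any 1 of 5 samples: control replicate 2 and SUPT4H1 siRNA replicate 1 of line 1, and control replicate 2 and both SUPT4H1 siRNA replicates of line 2. NDUFAF3 overlaps DALRD3 (log2 difference 0.04, adjusted p = 0.38). The median change was 0.04 for the NDUFAF factors, 0.07 for complex I subunits and 0.03 for all genes tested, and no difference between these groups was tested.

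The summed FPKM of each complex changed by a few percent at most, cytochrome c aside. Complex II went from sums of 110.3 and 108.5 to 114.2 and 118.0 FPKM in line 1 and from 108.7 and 110.6 to 115.4 and 113.9 in line 2, which is 106.2% and 104.5% of control, with no overlap within a line. The complex I core stood at 104.1% and 102.5% of control in lines 1 and 2, the supernumerary subunits at 104.9% and 102.9%, and complex III at 101.2% and 101.7%. Complex IV stood at 100.9% and 97.5%, complex V at 99.4% and 100%, and the NDUFAF factors at 100.7% and 104.5%. All 98 genes together stood at 101.8% and 100.6% of control, while their share of all FPKM did not rise. In line 1 the share was 1.378% and 1.404% in the controls and 1.37% and 1.36% after SUPT4H1 siRNA. In line 2 it was 1.48% and 1.519% against 1.469% and 1.488%, with groups that overlapped. Abundant genes such as ATP5E and COX4I1 weigh most in such sums. With median ratio scaling the mean log2 ratio of complex III over the lines turned from 0.02 to -0.02.

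Most genes changed in the same direction in both lines, at a share near that of all genes. In line 1, 13 of the 90 genes rose and 5 fell, where 19% and 11.7% of all genes did, and in line 2 17 rose and 6 fell, where 26.9% and 15.9% of all genes did. The change had the same sign in both lines for 70 of 90 genes (77.8%, against 74.4% of all genes), and 12 were called in both with the same sign (13.3%, against 21.5%). Across the 90 genes the log2 changes of the lines correlated at r = 0.57 and rho = 0.60, a description over genes that share their libraries. NDUFA4L2 was the 1 gene whose response differed between the lines, against 9.87% of all genes. ATP5B, the catalytic beta subunit, and ATP5D, the delta subunit of the central stalk, came next (0.14 and 0.21, line 2 minus line 1, limma adjusted p = 0.0555 and 0.0762). ATP5D fell by 0.19 in line 1 (adjusted p = 0.0145) and differed by 0.03 in line 2, and ATP5B rose by 0.15 in line 2 (adjusted p = 0.00157) and differed by 0.02 in line 1. The counts within a line moved by more than 1.5 times when single samples were left out, as given in the closing section.

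**Figure D4:**
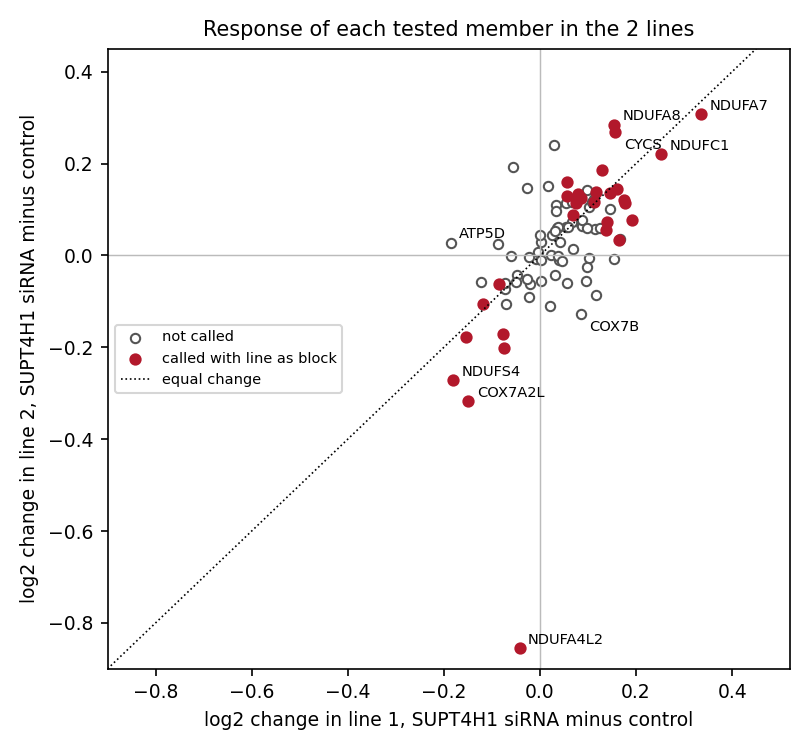
Log2 change of each of the 90 tested genes in line 1 (horizontal) and line 2 (vertical), SUPT4H1 siRNA minus control siRNA on the log2(FPKM + 1) scale, with filled points for genes called with line as block and a dotted line of equal change. Most points lie in the upper right or lower left, and NDUFA4L2 lies far below the others, at -0.04 in line 1 and -0.86 in line 2.

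The lines also differed without the knockdown. In the control samples, 38 of 90 genes (42.2%) were higher in line 2 and 5 (5.56%) lower, against 24.2% and 33.8% of all genes tested. With median ratio scaling 54 were higher and 4 lower, against 29.4% and 27.2% of all genes. NDUFA4L2 had the largest difference, 3.58 on the log2 scale (SE 0.07, limma adjusted p = 1.64e-10). ATP5J2 had the largest other called difference upwards, at 68.3 and 66.8 FPKM in line 1 and 94.0 and 108.4 in line 2 (0.57, SE 0.07, adjusted p = 4.96e-05), and NDUFA1, a small X-linked subunit of complex I, was higher by 0.40. The genes that were lower in line 2 were NDUFV3, NDUFS3, NDUFA6, ATP5D and ATP5A1. NDUFV3, a small subunit of the NADH-oxidising arm, stood at 10.6 and 10.5 FPKM in line 1 and at 6.16 and 7.31 in line 2 (-0.58, SE 0.08, adjusted p = 1.99e-04). Complex IV had 8 of 14 genes higher in line 2 and none lower, and complex II had 1 of 4 higher. This comparison has 1 line on each side, and line and any other property of the 2 cultures cannot be told apart.

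**Figure D5:**
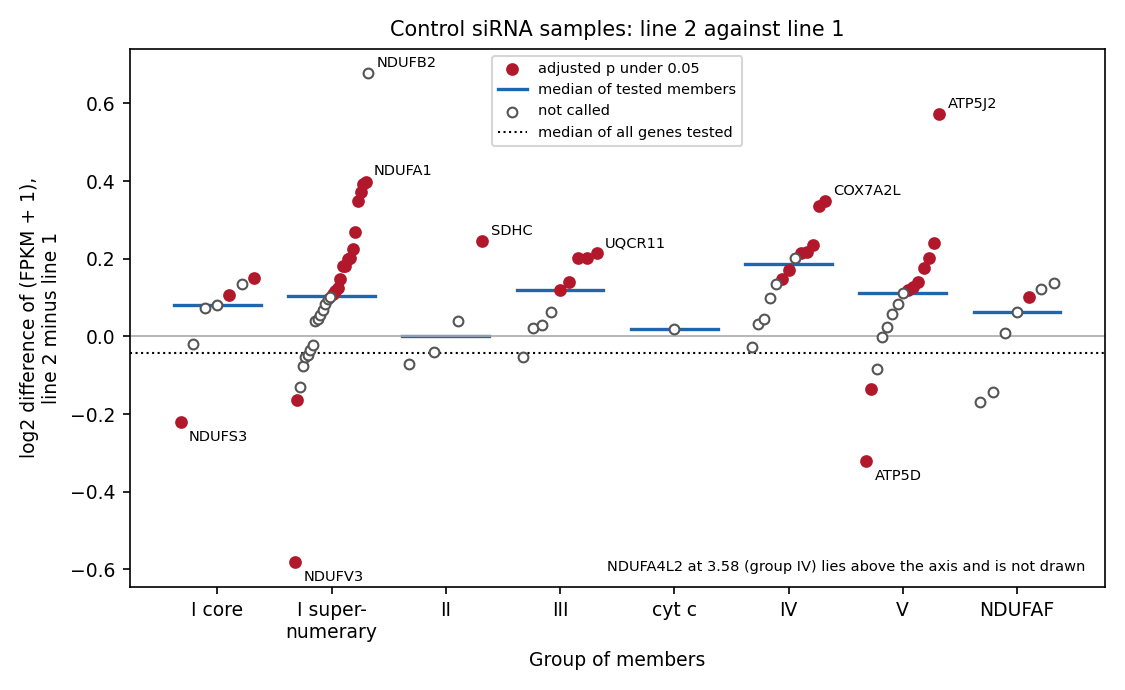
Log2 difference of each tested gene between the control samples of line 2 and line 1 on the log2(FPKM + 1) scale, by complex, with filled points for an adjusted p under 0.05, a bar at the median of each group and a dotted line at the median of all genes tested (-0.04). Most filled points lie above 0, with ATP5J2 at 0.57 the highest filled point drawn, NDUFB2, not called, above it at 0.68, and NDUFV3 at -0.58 the lowest; NDUFA4L2, at 3.58, lies above the axis, and the 3 tested genes outside these groups are not drawn.

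Genes next to the respiratory chain were read from lists that hold no member of the set above. Of 18 citric acid cycle genes, pyruvate dehydrogenase included, 7 rose and none fell, with a median of 0.07, against 26.8% and 15.2% of all genes. OGDH, the first component of the 2-oxoglutarate dehydrogenase complex, went from 12.7 and 13.2 to 15.6 and 15.0 FPKM in line 1 and from 13.4 and 13.2 to 18.4 and 17.8 in line 2 (log2 change 0.32, SE 0.04, limma adjusted p = 3.35e-04). DLAT, of pyruvate dehydrogenase, rose by 0.16 and SUCLA2, of succinyl-CoA ligase, by 0.12. The SUCLA2 call was lost under the scaling and without control replicate 2 of line 1 or SUPT4H1 siRNA replicate 2 of line 2. With median ratio scaling 2 of the 18 rose and 2 fell (11.1% each), where 20.3% and 20.2% of all genes did. Of 7 tested genes of the ATP synthase inhibitor, carriers and porins, 5 rose (71.4%) and 1 fell (14.3%), where 26.8% and 15.2% of all genes did. Under the scaling 3 of the 7 rose and 1 fell, and without the line term none was called. ATPIF1, which inhibits the ATP synthase when it runs in reverse, rose from 53.3 and 52.5 to 61.1 and 62.3 FPKM in line 1 and from 60.9 and 65.0 to 74.7 and 69.2 in line 2 (0.20, SE 0.03, adjusted p = 0.00104). SLC25A4, an ADP/ATP carrier at 1.597 to 2.67 FPKM, rose by 0.19, and VDAC1, the main outer membrane porin, fell by 0.17 (adjusted p = 9.68e-04). SLC25A6 was listed at 0 in all samples.

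Of 41 assembly factors other than NDUFAF, 8 rose (19.5%) and 4 fell (9.76%), where 26.8% and 15.2% of all genes did, with a median of -0.01. UQCC1, which helps to make cytochrome b, rose by 0.20 (limma adjusted p = 0.00111). COX20, a chaperone of complex IV subunit 2, and C6orf57, the older symbol of the complex II assembly factor SDHAF4, each fell by 0.21 (adjusted p = 0.0111 and 0.0281). Without any filter on FPKM the C6orf57 call was lost, and so it was without any 1 of control replicate 1 and both SUPT4H1 siRNA replicates of line 1, and control replicate 2 and SUPT4H1 siRNA replicate 1 of line 2. Of 19 tested regulators of respiratory genes, 2 rose (10.5%) and 3 fell (15.8%). ESRRA, the estrogen-related receptor alpha that acts with PGC-1 coactivators, went from 7.41 and 7.45 to 8.68 and 9.26 FPKM in line 1 and from 7.47 and 7.49 to 8.996 and 8.96 in line 2 (0.24, SE 0.03, adjusted p = 2.08e-04). MYC, a growth regulator with many mitochondrial targets, fell by 0.32 (SE 0.04, adjusted p = 2.37e-04), and C10orf2, the mitochondrial DNA helicase Twinkle, by 0.18 (adjusted p = 0.0391). The C10orf2 call was lost without a filter on FPKM and without any 1 of 6 samples, all but control replicate 2 of line 1 and SUPT4H1 siRNA replicate 2 of line 2. NRF1, GABPA and TFAM, the mitochondrial transcription factor, were not called, with log2 differences of -0.08, -0.07 and 0.06. PPARGC1A, the gene of PGC-1 alpha, stood at 0.42 to 0.60 FPKM and was not tested.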

How the data were processed

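PolyA RNA of 8 samples was sequenced, 2 control siRNA and 2 SUPT4H1 siRNA treatments in each of 2 fibroblast lines. The authors deposited FPKM values per gene with interval bounds and a status, and the submitters' processing notes name hg19. The tool that made the values, its annotation and any use of strand were not given in the sources used here. Rows spanning under 200 bp (2141 of 27032) were left out and the other rows of a symbol were summed. No member had several rows. Genes with a mean of at least 1 FPKM and status OK in every sample (11444) were tested on log2(FPKM + 1) with limma 3.58.1 (R 4.3.3), 2-sided, with line as block and a mean-variance trend, Benjamini-Hochberg adjustment over all of them and a threshold of 0.05. Pairing comes from the lines, whose samples are the same cells. Within a line, control and SUPT4H1 siRNA samples deviated together from their siRNA means (r = 0.883 to 0.899). With 2 lines, such an r follows from any difference between the lines and does not show pairing of single samples. Responses within a line, their difference and the difference between the control samples came from a fit of 4 group means. The script was tested on simulated data.

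The number of fragments is unknown. The deposited intervals reached 2 to 17.7% of the value to either side in the tested members (median 6.85%), and the SD of the log2 ratio between replicates was 0.088 to 0.094. Relative depth came from rows whose deposited interval had the width of a few fragments (tolerance 0.005).

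Members were taken by symbol. Not every member is named, those not named stand in the counts, sums and ranges, and 1 item is not reported here. In each complex the 3 tested members with the largest change, the most abundant, those called against the direction of most called members, the isoform sets and members whose response differed between the lines are named with values. In the other lists these are the 3 largest changes and PPARGC1A, ESRRA, NRF1, GABPA, TFAM and ATPIF1. Other members and genes named in the text were chosen after their values were seen. The members and lists were chosen with earlier results of these data known. Promoters came from RefSeq in GRCh38.p14. Tables and plots used Python 3.11.15, pandas 2.3.3, numpy 2.4.6 and matplotlib 3.10.9. Alternatives changed the block, pseudocount, filter, scaling, variance trend, summing of rows and the samples included.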

Additional observations from a re-analysis of the deposited data

Results flagged for a closer look

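The response to SUPT4H1 siRNA differed between the lines, by a limma test of the difference itself, for NDUFA4L2 among the members and for OGDH, COA5 and SCO1 among the other lists. The difference, line 2 minus line 1 on the log2 scale, was -0.81 for NDUFA4L2 (adjusted p = 7.74e-04), which stood in the controls at 3.89 and 3.90 FPKM in line 1 and at 55.2 and 59.7 in line 2. It was 0.19 for OGDH (adjusted p = 0.0452), which rose in both lines, by 0.23 in line 1 and by 0.42 in line 2. COA5, an assembly factor of complex IV, had a difference of -0.24 (adjusted p = 0.0471). COA5 stood at 9.78 and 9.80 against 10.1 and 11.01 FPKM in line 1 and at 9.25 and 9.72 against 8.29 and 8.67 in line 2. SCO1, a copper chaperone of complex IV, had a difference of -0.21 (adjusted p = 0.0317). It stood at 9.42 and 9.54 against 10.1 and 9.82 FPKM in line 1 and at 9.78 and 10.1 against 9.02 and 8.77 in line 2, so COA5 and SCO1 lay above the controls in line 1 and below them in line 2. With 1 culture source per line, the line and other properties of the cultures cannot be told apart.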

How the results depend on the processing

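With the line as block, 21 members rose and 8 fell. With no replicate block, 3 rose and 0 fell, so most calls rest on the pairing by line. The replicate numbers within a line share only a number (correlation of deviations 0.103 in line 1 and 0.05 in line 2), and with line and number together as block 19 rose and 6 fell. Median ratio scaling gave 12 rises and 14 falls over both lines, 9 rises and 16 falls in line 2, 2 members called in the difference between the lines, and mean log2 ratios of summed FPKM of 0.04 for complex II, 0.208 for cytochrome c, -0.04 for complex V and 0.001 for the NDUFAF factors, against 0.075, 0.243, -0.005 and 0.037. With no filter on FPKM 3 members fell in line 1 and 9 rose in line 2. A mean of at least 5 FPKM gave 2 members in the difference between the lines, and without the variance trend 3 fell in line 1. Leaving out 1 sample gave 13 to 29 rises (without control replicate 1 and 2 of line 2) and 3 to 9 falls (without SUPT4H1 siRNA replicate 1 and control replicate 1 of line 2). It gave 6 to 20 rises and 1 to 6 falls in line 1, lowest without control replicate 1 and 2 of line 1 and highest without control replicate 1 of line 2. In line 2 it gave 7 to 28 rises and 4 to 12 falls, the extremes without control replicate 1 or 2 of line 2, and 1 to 3 members in the difference between the lines. A sample left alone in its group is assumed to vary like the other groups. For the summed FPKM the ranges were 0.027 to 0.067 for the complex I core, 0.036 to 0.076 for its supernumerary subunits, 0.063 to 0.087 for complex II, -0.006 to 0.047 for complex III, 0.231 to 0.255 for cytochrome c, -0.034 to 0.01 for complex IV, -0.027 to 0.018 for complex V and 0.022 to 0.052 for the NDUFAF factors. COX7B, never called, ranged from -0.074 to 0.076 when 1 sample was left out, and turned from -0.02 to 0.076 without control replicate 2 and to 0.033 without SUPT4H1 siRNA replicate 1 of line 2. The causes of these shifts were not tested. A pseudocount of 0.1 and leaving out symbols with several rows changed no count of members.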

Other observations

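NDUFB2, a supernumerary subunit of complex I, split the samples by replicate in line 1 and not by siRNA. It stood at 36.6 FPKM in control replicate 1 and at 39.2 in SUPT4H1 siRNA replicate 1 of line 1, and at 74.0 and 79.8 in control and SUPT4H1 siRNA replicate 2 of that line. In line 2 it stood at 79.2 and 88.8 in the controls and at 92.1 and 88.6 after SUPT4H1 siRNA. The deposited intervals of the low samples, 32.7 to 40.4 and 35.0 to 43.3 FPKM, lay apart from those of the other samples, the lowest of which was 68.1 to 79.9. Its antisense neighbour NDUFB2-AS1 stood at 0.29 to 0.43 FPKM in all samples. Across the 90 tested members the log2 change correlated weakly with the log2 of the span of the gene (r = 0.07, rho = 0.24) and of the mean FPKM (r = -0.17, rho = -0.22), a description over genes of the same libraries.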
